A study of Drosophila melanogaster with 8 samples.

Results

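The boundary between M2 and M3–5 lies inside the anterior midgut of the *Drosophila melanogaster* larva, where a short block of tissue named M2 gives way to the pooled subsections M3, M4 and M5. A gene was taken as a member if its deposited level reached 10 FPKM in M2, in M3–5 or in both, where FPKM is the number of fragments per kilobase of exon, scaled to the size of the library. Of 14207 named entries in the table, 3847 met this limit. Each was described by its log2 ratio, log2((M2 FPKM + 1)/(M3–5 FPKM + 1)), so that a positive value means a higher level in M2.

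M2 and M3–5 are each 1 library, cut from the midguts of feeding larvae of the last instar in a w1118 background, and all 8 subsections of the series carry the same genotype with no treatment. One parent line carried GAL4 under the promoter of *Cyp4d2* and the other, w1118; P{UAS-GFP.nls}14, a nuclear GFP that GAL4 switches on, and GFP bands of their progeny in M2, M4, M6, M9 and M12–13 guided the dissection. Many larvae were pooled for each library, so a value is a mean over animals with no replicate and no error over animals. No test between the subsections was possible, and no p-value is given.

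The larval midgut is a tube of enterocytes that secrete digestive enzymes and take up nutrients, with scattered enteroendocrine cells that release peptide hormones and a sleeve of visceral muscle. A chitin and protein sheet, the peritrophic matrix, lines the lumen and keeps food away from the cells. Behind the anterior midgut, the copper cells of the middle midgut (M6) secrete acid.

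The boundary was steep for few genes and shallow for most. In all, 39 genes (1.01%) were at least 4-fold higher in M2 than in M3–5, and 60 genes (1.56%) were at least 4-fold lower in M2. At a limit of 2-fold, 140 genes (3.64%) were higher in M2 and 129 (3.35%) were lower, which left 3578 genes (93.0%) within 2-fold. The median log2 ratio was 0.19, with quartiles of −0.08 and 0.44. The boundary in front, M1 over M2, had 138 genes past 4-fold in either direction among 3888 (3.55%), and that behind, M3–5 over M6, had 963 among 4122 (23.4%), against 99 among 3847 (2.57%) here. These comparisons share the libraries M2 and M3–5 with the one described. M6 was lower than M3–5 for most genes, with a median log2 ratio of 0.85 for M3–5 over M6. Per the methods of the study, RNA of M6 was more prone to degradation and gave fewer reads than that of the other subsections, which touches every value of M6 below, and its part in them was not tested.

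**Figure D1:**
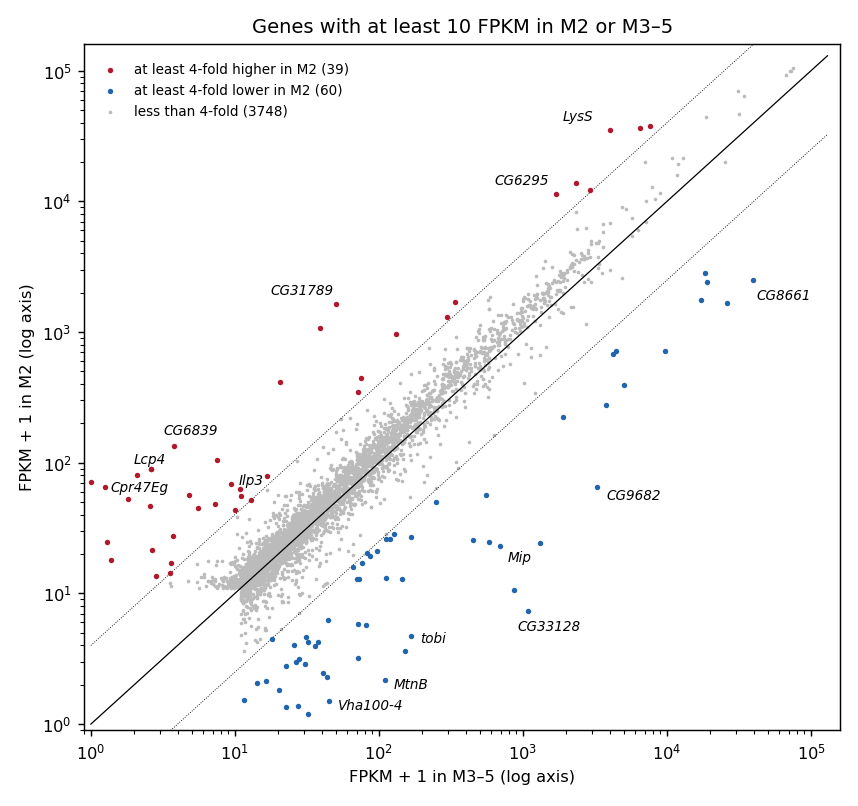
Level in M2 (vertical) against level in M3–5 (horizontal), as FPKM + 1 on log axes, for each of the 3847 genes, with 1 library per subsection. The solid line marks equal levels and the dotted lines 4-fold differences, and 39 genes lie above and 60 below the dotted lines.

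The direction of small differences depended on the scale. The authors had scaled each library by its upper quartile, and the FPKM values summed to 1806163 in M2 and 1357939 in M3–5. With both libraries rescaled to the same sum, the median log2 ratio moved to −0.19, 26 genes were at least 4-fold higher and 71 at least 4-fold lower in M2, and the counts at 2-fold were 61 and 188. Median-ratio scaling left the counts at 37 and 61. The log2 ratio also followed transcript length, which was known for 3718 genes: Spearman's rho with the log2 ratio was −0.52 across genes of these same 2 libraries, which are not independent replicates. The median was 0.59 for 144 genes with transcripts up to 500 nt and −0.11 for 937 genes above 2000 and up to 5000 nt. Removing this trend left 37 genes at least 4-fold higher and 57 at least 4-fold lower in M2. A list of genes is read below against the median of 0.19, and differences under 2-fold are given only as values.

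The authors' 95% intervals, made from 1 library with an assumed spread, overlapped between M2 and M3–5 for 3840 of the 3847 genes and for 97 of the 99 past 4-fold. The exceptions past 4-fold were *CG8661* and *CG7290*, and the interval of *CG8661* in M3–5 spanned 39437 to 39627 FPKM. For 3830 genes the lower bound was 0 in both libraries, so their intervals had to overlap whatever the difference in level. The number of reads behind a value is unknown, because FPKM values hold no counts. In libraries of whole tissue, fewer cells of a type and less RNA per cell cannot be told apart. Markers of neighboring tissues were not equally low. The listed genes of salivary gland summed to 1.10 FPKM in M2 and 1.32 in M3–5, those of haemocytes to 3.01 and 3.51, those of trachea to 2.22 and 3.06, those of neurons and glia to 9.07 and 18.0, and those of fat body to 26.9 and 33.6. Those of Malpighian tubule and hindgut summed to 178 FPKM in M2 and 216 in M3–5, of which *CG31547* alone made up 104.2 and 167. Those of foregut and proventriculus summed to 216 FPKM in M2 and 381 in M3–5. Of these, *Peritrophin-15a*, which is also in the list of the peritrophic matrix, had 99.8 FPKM in M2 and 341 in M3–5. *Cpr47Eg*, which is also in the list of cuticle proteins, had 64.3 FPKM in M2 and 0.263 in M3–5. Among the 107 foregut and proventriculus genes found, 37 were higher and 20 lower in M2. The part of these tissues in the values below was not tested.

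**Figure D2:**
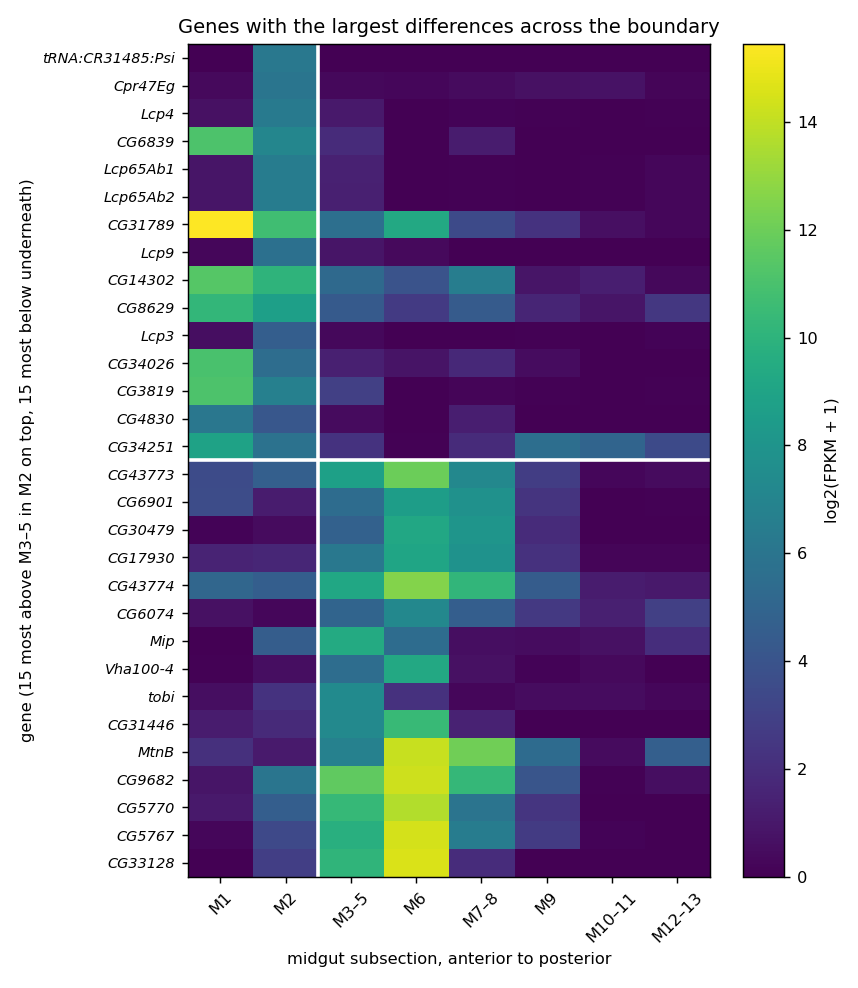
Level as log2(FPKM + 1) in the 8 subsections (columns, anterior to posterior) for the 15 genes most above and the 15 genes most below M3–5 in M2 (rows), 1 library per subsection. The white vertical line is the boundary, and most genes of the lower block are brightest in M6 while several of the upper block are brightest in M1.

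With a switch defined as at least 10 FPKM on one side and below 1 FPKM on the other, the boundary had 6 genes off in M2 and on in M3–5 (0.156%) and 5 genes on in M2 and off in M3–5 (0.13%). The 6 genes off in M2 were *Vha100-4*, a subunit of the proton-pumping V-ATPase, *CAH9* (CG6074 in the table), a carbonic anhydrase, *pcl* (now *Pgcl*), a pepsinogen-like gene, *CG8560*, *CG30479* and *CG10000*. *Vha100-4* had 0.496 FPKM in M2 and 44.2 FPKM in M3–5, and *CAH9* had 0.194 FPKM in M2 and 31.1 FPKM in M3–5. The level of *pcl* was 0.359 FPKM in M2 and 21.6 FPKM in M3–5, that of *CG8560* 0.828 FPKM in M2 and 19.1 FPKM in M3–5 and that of *CG30479* 0.387 FPKM in M2 and 26.6 FPKM in M3–5. *CG10000* was at the limit, with 0.523 FPKM in M2 and 10.6 FPKM in M3–5. All but *CG10000* were higher again behind M3–5: *Vha100-4*, *CAH9*, *pcl* and *CG30479* were highest in M6, and *CG8560*, listed with the metallocarboxypeptidases, had 12988 FPKM in M7–8. The 5 genes on in M2 were 3 cuticle protein genes described below, *CG4830* and a tRNA gene. *CG4830* had 17.0 FPKM in M2 and 0.385 FPKM in M3–5, and was higher still in M1 with 67.9 FPKM. The tRNA gene *tRNA:CR31485:Psi* had 70.7 FPKM in M2 and was listed at 0 in M3–5 and in the other 6 subsections. Its annotated length was far below that of most messenger RNAs, so few reads can give such a value.

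The peptide hormone *Mip*, myoinhibiting peptide, marked the M3–5 side. Its level was 22.2 FPKM in M2 and 696 FPKM in M3–5, a log2 ratio of −4.91. It was listed at 0 in M1, had 42.2 FPKM in M6 and at most 3.10 FPKM behind M6, so that it reached 10 FPKM only in M2, M3–5 and M6 among the 8 libraries. The authors' interval ran from 0 to 49.0 FPKM in M2 and from 0 to 1943 FPKM in M3–5.

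Other enteroendocrine peptides differed in their course. Of 14 listed peptide genes, 6 passed the limit, and 4 of these were at least 2-fold lower in M2 and none at least 2-fold higher, with a median log2 ratio of −2.01. Among all 3847 genes 3.35% were at least 2-fold lower and 3.64% at least 2-fold higher. *CCHa1*, which encodes CCHamide-1, had 2.15 FPKM in M2 and 26.7 FPKM in M3–5 (log2 ratio −3.14). *CNMa* (CG13936 in the table), the gene of CNMamide, had 27.3 FPKM in M2 and 126 FPKM in M3–5 (−2.16) and 0.536 FPKM in M6. *Nplp2*, annotated as a neuropeptide-like precursor, had 10.3 FPKM in M2 and 40.0 FPKM in M3–5 (−1.86). Diuretic hormone 31 (*Dh31*), with 92.0 FPKM in M2 and 61.2 FPKM in M3–5 (0.58), and *CCHa2*, with 43.7 FPKM in M2 and 38.6 FPKM in M3–5 (0.17), stayed within 2-fold. The remaining 8 peptide genes were below 10 FPKM on both sides: *Orcokinin* (CG13565) had 1.11 FPKM in M2 and 3.86 FPKM in M3–5 and 55.3 FPKM in M6, and *npf*, the gene of neuropeptide F, was listed at 0 in M2 with 0.909 FPKM in M3–5 and 31.4 FPKM in M6.

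Of the genes of peptide cutting and amidation, *amon*, *7B2* and *Pal2* were at least 2-fold lower in M2, and *Phm*, *svr* and *Pal1* were within 2-fold. *amon*, the prohormone convertase, had 6.09 FPKM in M2 and 27.0 FPKM in M3–5 (log2 ratio −1.98), and *7B2*, the chaperone of that convertase, had 53.6 FPKM in M2 and 163 FPKM in M3–5 (−1.58). *Pal2*, a lyase of the amidation step, had 16.1 FPKM in M2 and 75.9 FPKM in M3–5 (−2.17). *Phm*, the monooxygenase of the same step, had 45.2 FPKM in M2 and 87.2 FPKM in M3–5 (−0.93), and *svr*, a carboxypeptidase that trims cleaved peptides, 12.2 FPKM in M2 and 21.3 FPKM in M3–5 (−0.76). *Pal1*, another amidating lyase, had 15.9 FPKM in M2 and 13.6 FPKM in M3–5 (0.21). In the list of processing and endocrine cell genes, 6 of 15 passed the limit. Of these, 3 were at least 2-fold lower and none at least 2-fold higher in M2 (median −1.26), where 3.35% and 3.64% of all genes were. The transcription factors of endocrine cells in that list were near the floor, with 0.139 FPKM and 0.549 FPKM for *pros* in M2 and in M3–5. The summed level of the listed genes of neurons and glia was also lower in M2, as given above, although 0 of these 13 genes passed the limit, and their part in the peptide values was not tested.

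**Figure D3:**
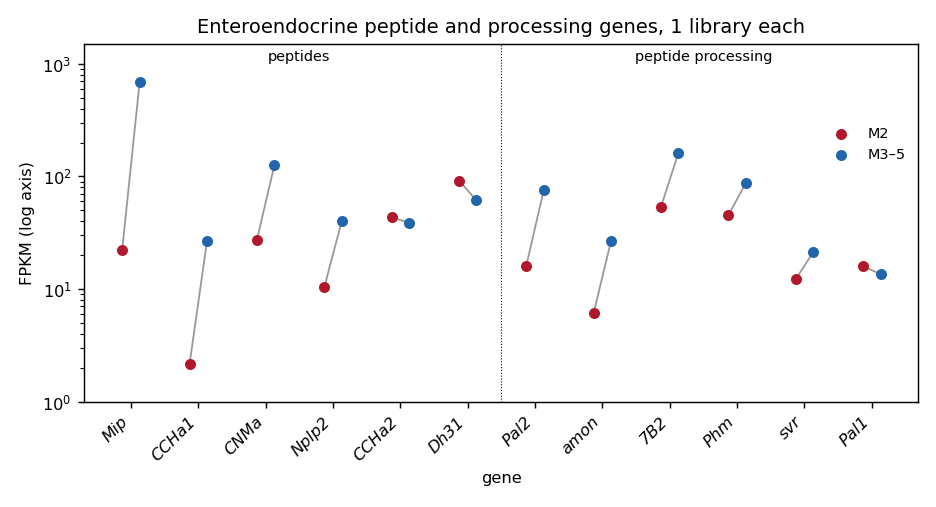
Level (FPKM, log axis) in M2 (red, left of each pair) and M3–5 (blue, right) for 6 enteroendocrine peptide genes and 6 genes of peptide processing, 1 library each. *Mip* has the longest line, with 22.2 FPKM in M2 and 696 FPKM in M3–5, while *CCHa2*, *Dh31* and *Pal1* slope downward.

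Secreted proteins of the peritrophic matrix and mucins made up some of the most abundant transcripts of M3–5. Of 59 listed genes, 14 passed the limit, and 9 were at least 2-fold lower in M2, 6 of them at least 4-fold, against 1 at least 2-fold higher (median log2 ratio −1.62). Among all 3847 genes 3.35% were at least 2-fold lower and 3.64% at least 2-fold higher in M2. The lean was one of the genes past the limit: of the 59 at any level, 25 were higher and 25 lower in M2. The summed level of the list was 8263 FPKM in M2 and 63359 FPKM in M3–5. *CG7290* had 1679 FPKM in M2 and 26055 FPKM in M3–5 (log2 ratio −3.96), and *CG6933* had 2425 FPKM in M2 and 18936 FPKM in M3–5 (−2.96). *CG7714* had 711 FPKM in M2 and 9749 FPKM in M3–5 (−3.78). The mucin *Muc18B* had 395 FPKM in M2 and 5024 FPKM in M3–5 (−3.66) and 375 FPKM in M1. *CG6996* had 11.8 FPKM in M2 and 143 FPKM in M3–5 (−3.49) and *CG4835* 3.26 FPKM in M2 and 31.4 FPKM in M3–5 (−2.93). The peritrophins *Peritrophin-15a* and *Peritrophin-15b* were higher in M1 than on either side of the boundary, with 2763 and 1875 FPKM there, and had −1.76 and −1.48 as log2 ratios across it. The list of foregut and proventriculus, which holds both, summed to 4668 FPKM in M1 and 4914 FPKM in M7–8. *Muc55B* stayed within 2-fold, with 2404 FPKM in M2 and 2643 FPKM in M3–5. The only listed gene at least 2-fold higher in M2 was *CG17147*, with 68.9 FPKM in M2 and 27.3 FPKM in M3–5 (1.30).

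The most abundant gene of the M3–5 side with a 4-fold difference was *CG8661*, for which the annotation used gives no function. It had 2485 FPKM in M2 and 39532 FPKM in M3–5 (log2 ratio −3.99), which placed it behind only 4 trypsins in M3–5, and 5736 FPKM in M6. Its neighbor *CG8664* had 721 FPKM in M2 and 4407 FPKM in M3–5 (−2.61). *CG4734* had 2841 FPKM in M2 and 18216 FPKM in M3–5 (−2.68), *CG6403* had 1757 FPKM in M2 and 17141 FPKM in M3–5 (−3.29), and *CG14989* had 224 FPKM in M2 and 1899 FPKM in M3–5 (−3.08). Each of these 5 genes was lower again in M6. Altogether 16 genes were at least 4-fold higher in M3–5 than in both M2 and M6, among them *Mip*, *CCHa1*, *CNMa*, *Pal2*, *tobi* and *Cyp6g1*. The odorant receptor gene *Or10a* also had this course at a low level, with 1.08 FPKM in M2 and 13.3 FPKM in M3–5 and 0.756 FPKM in M6. A drop of at least 4-fold from M3–5 to M6 was common, seen in 740 of the 4122 genes past the limit in either.

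Sugar-digesting enzymes were higher on the M3–5 side. Of 8 maltase and amylase genes past the limit, 5 were at least 2-fold lower in M2 and none at least 2-fold higher (median log2 ratio −1.63), where 3.35% and 3.64% of all genes were. The α-glucosidase gene *tobi*, named as a target of brain insulin, had 3.71 FPKM in M2 and 165 FPKM in M3–5 (−5.14) and 3.61 FPKM in M6, and shared a Cuffdiff bundle, a stretch of loci counted together, with 1 other gene. *Mal-A8* had 163 FPKM in M2 and 627 FPKM in M3–5 (−1.94) and *Mal-A6* 89.5 FPKM in M2 and 352 FPKM in M3–5 (−1.96), although *Mal-A6* was higher again in M1 with 482 FPKM. *Mal-A2* and *Mal-A7* had log2 ratios of −1.84 and −1.42. *Mal-A1*, the most abundant maltase, had 666 FPKM in M2 and 1322 FPKM in M3–5 (−0.99), just short of 2-fold. *Mal-A3* and *Mal-A4* had log2 ratios of 0.54 and −0.02, so the family was not uniform.

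The 3 genes of glutamine and glutamate metabolism, a group picked out after its values had been seen, were all at least 2-fold lower in M2. *Gs2*, a glutamine synthetase, had 62.8 FPKM in M2 and 248 FPKM in M3–5 (log2 ratio −1.97). *Gdh*, glutamate dehydrogenase, had 18.6 FPKM in M2 and 64.9 FPKM in M3–5 (−1.75), and *Gs1*, the mitochondrial glutamine synthetase, had 7.65 FPKM in M2 and 20.5 FPKM in M3–5 (−1.31). All 3 were higher in M6 than in M3–5, but their summed level was highest in M12–13, with 2897 FPKM against 756 FPKM in M6. Among transporters, *sbm* (CG9413), an amino acid transporter, had 18.2 FPKM in M2 and 85.7 FPKM in M3–5 (−2.18), and *nebu* (CG10960), in the list of sugar transport genes, had 3.02 FPKM in M2 and 24.6 FPKM in M3–5 (−2.67).

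**Figure D4:**
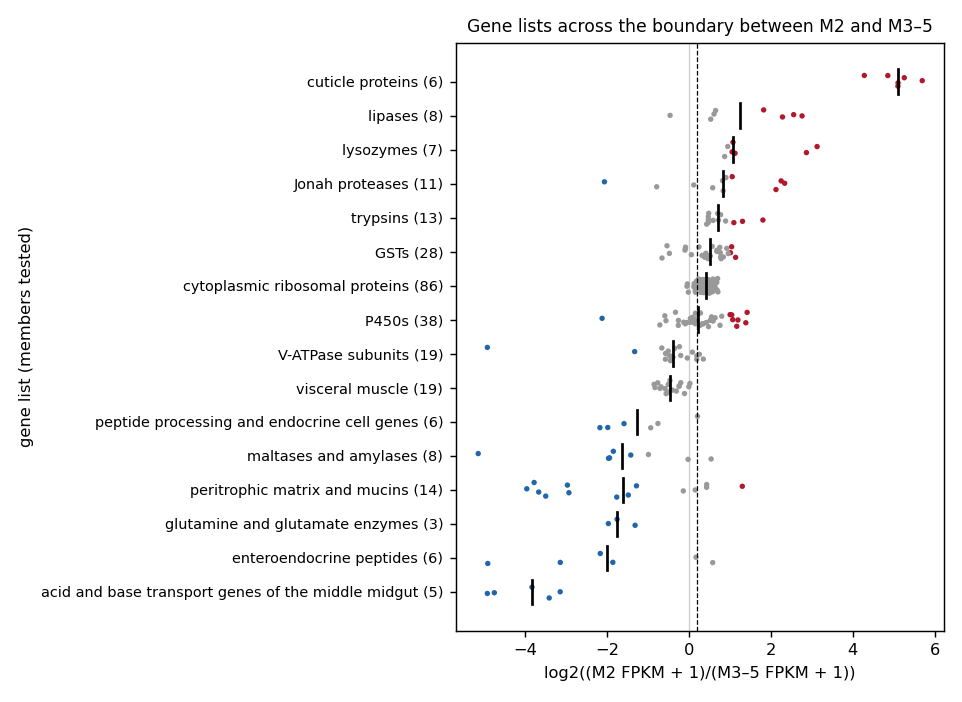
Log2 ratio of M2 over M3–5 for the members of 16 gene lists that passed the limit of 10 FPKM (points, with the number in parentheses), 1 library per subsection. Black bars are medians of the lists, the dashed line is the median of all 3847 genes, and red and blue points are at least 2-fold higher and lower in M2. The lists of cuticle proteins and of acid and base transport lie at opposite ends, and both were written after the values had been seen.

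Many of the genes higher in M3–5 were higher still in M6. Of the 60 genes at least 4-fold lower in M2, 26 were highest in M6, 22 in M3–5 and 12 elsewhere. How many of all 3847 genes were highest in M6 was not counted. The median level of the 60 genes was 11.9 FPKM in M2 and 90.8 FPKM in M3–5, and it was 4.73 FPKM in M1, 300.2 FPKM in M6 and 50.1 FPKM in M7–8. The largest log2 ratio in size of all was that of *CG33128*, in the list of pepsin-like aspartic proteases, with 6.34 FPKM in M2 and 1089 FPKM in M3–5 (−7.21) and 24758 FPKM in M6. *CG5767* had 9.58 FPKM in M2 and 860.4 FPKM in M3–5 (−6.35) and 22552 FPKM in M6. *CG5770* had 23.3 FPKM in M2 and 1319 FPKM in M3–5 (−5.77), and *CG9682* had 63.7 FPKM in M2 and 3282 FPKM in M3–5 (−5.67). For these 4 genes no function is annotated beyond the list named. The metallothionein *MtnB*, which binds copper and other metals, had 1.18 FPKM in M2 and 109 FPKM in M3–5 (−5.66) and 18448 FPKM in M6. Of the other genes among the 15 lowest, *CG31446*, *CG43774*, *CG17930*, *CG6901* and *CG43773* had log2 ratios between −5.39 and −4.12, and all were highest in M6.

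Among genes with this course were 5 of acid and base transport, picked after their values had been seen, so that their shared direction is no result. The wider list of ion pumps, exchangers, water channels and carbonic anhydrases had no such lean, with 4 of 17 genes past the limit at least 2-fold higher and 2 at least 2-fold lower in M2 (median log2 ratio 0.09, and −0.37 with the libraries rescaled to the same sum). Beside *Vha100-4* and *CAH9* above, the carbonic anhydrase *CAH1* had 1.91 FPKM in M2 and 29.8 FPKM in M3–5 (−3.41), the bicarbonate exchanger *Ae2* (CG8177) had 3.25 FPKM in M2 and 36.5 FPKM in M3–5 (−3.14), and the chloride channel *pHCl-2* (CG11340) had 4.70 FPKM in M2 and 80.0 FPKM in M3–5 (−3.83). *CAH1* overlaps *adat*, with which it shared a bundle, and *adat* had 4.79 FPKM in M2 and 70.3 FPKM in M3–5 (−3.62), so that reads of these genes cannot be told apart without strand. In M6 the levels were 632 FPKM for *Vha100-4*, 147 for *CAH9*, 188 for *CAH1*, 156 for *Ae2* and 95.7 for *pHCl-2*. Most other subunits of the V-ATPase differed less. Of 19 subunit genes past the limit, 2 were at least 2-fold lower in M2, *Vha100-4* and *Vha100-5* (−1.32), and the median was −0.39.

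The level in M3–5 was no fixed share of the level in M6. Across the 26 genes that were highest in M6, M3–5 had between 0.592% (*MtnB*) and 92.3% of the M6 level, with a median of 11.2%. It was 4.40% for *CG33128*, 6.99% for *Vha100-4*, 16.4% for *CG9682*, 21.1% for *CAH9* and 80.0 against 95.7 FPKM for *pHCl-2*. Taken from the other side, 94 genes had at least 100 FPKM in M6 and were at least 4-fold higher there than in M2. Of these, 35 were at least 4-fold lower in M2 than in M3–5, 80 were lower in M2 by any amount, and 13 were higher in M2. These genes were chosen by a low level in the same M2 library, which by itself favors lower values in M2. Over all 3847 genes, 60 (1.56%) were at least 4-fold lower in M2 and 1244 were lower by any amount. The homeotic gene *lab* (labial), which specifies copper cells, was below the limit, with 0.0272 FPKM in M2 and 2.53 FPKM in M3–5 and 32.9 FPKM in M6. The position of the posterior cut of M3–5, which borders M6, was not tested.

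**Figure D5:**
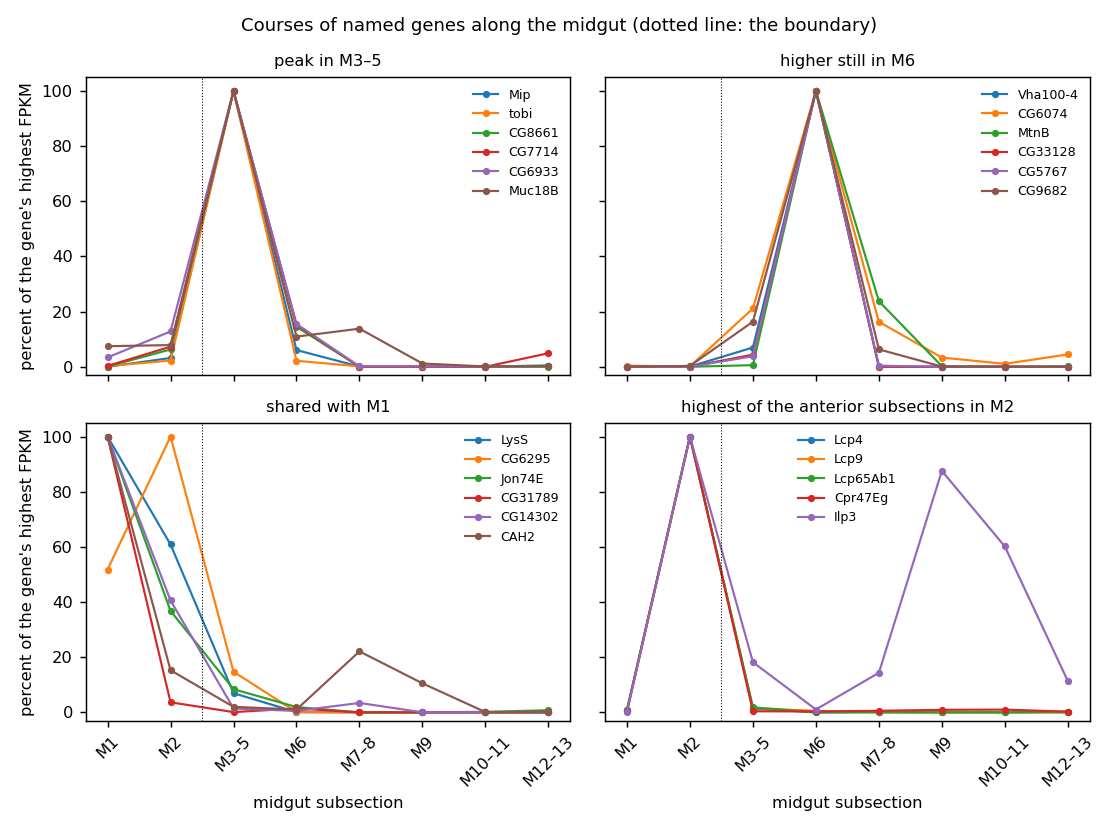
Level as a percentage of each gene's highest FPKM in the 8 subsections, anterior to posterior, for named genes in 4 groups, 1 library per subsection. The dotted line is the boundary: the groups of the upper panels lie behind it, with peaks in M3–5 and in M6, and those of the lower panels in front of it, and *Ilp3* alone has a further peak in M9.

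Most genes of the M2 side also had at least 10 FPKM in M1, 30 of the 39 that were at least 4-fold higher in M2. Of these 39 genes, 20 were highest in M1, 15 in M2 and 4 farther back. How many of all 3847 genes were highest in M1 was not counted. The median level of the 39 genes was 78.9 FPKM in M2 and 8.47 FPKM in M3–5, with 214 FPKM in M1 and 1.66 FPKM in M6. For the 20 genes highest in M1, the level in M2 was between 2.21% and 90.0% of that in M1. With the libraries rescaled to the same sum, 12 of the 26 genes still at least 4-fold higher in M2 were highest in M1.

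Lysozymes, which digest bacterial walls, were higher in M2. All 7 lysozyme genes past the limit had a positive log2 ratio, 5 of them at least 1 (median 1.07). With the length trend removed, 2 of the 7 were at least 1 (median 0.81). Of all 3847 genes, 2603 had a positive log2 ratio and 140 (3.64%) one of at least 1. *LysS* had 35149 FPKM in M2 and 4024 FPKM in M3–5 (log2 ratio 3.13), after 57738 FPKM in M1, and *LysP* had 26.3 FPKM in M2 and 2.75 FPKM in M3–5 (2.87). The other members lay between 0.87 for *LysC* and 1.13 for *LysB*. *LysB*, *LysC*, *LysD*, *LysE*, *LysP* and *LysS* are closely related neighbors in 1 bundle of 9 genes, so the division of reads among them is uncertain. *PGRP-SC2*, which degrades peptidoglycan, had 16.2 FPKM in M2 and 2.58 FPKM in M3–5 (2.27) and 415 FPKM in M1.

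Lipases were either well above M3–5 in M2 or within 2-fold of it. Of 8 past the limit, 4 were at least 2-fold higher in M2 and none at least 2-fold lower (median 1.24), where 3.64% and 3.35% of all genes were. *CG6295* had 11407 FPKM in M2 and 1683 FPKM in M3–5 (2.76), *CG17191* had 443 FPKM in M2 and 74.6 FPKM in M3–5 (2.56) and *CG6283* had 345 FPKM in M2 and 70.1 FPKM in M3–5 (2.28), all in 1 bundle of 12 genes. *mag* (magro), a lipase that also cleaves cholesterol esters, had 8279.8 FPKM in M2 and 2340.4 FPKM in M3–5 (1.82). The other 4 had log2 ratios between −0.46 (*CG5162*) and 0.65 (*Lip4*). Among genes of lipid transport, the acyl-CoA-binding protein gene *Acbp4* (CG8629) had 415 FPKM in M2 and 19.7 FPKM in M3–5 (4.33), whereas its relative *Acbp3* (CG8628) ran the other way, with 11.95 FPKM in M2 and 69.1 FPKM in M3–5 (−2.44).

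Serine proteases leaned to M2 by smaller steps. Among the Jonah proteases, *Jon74E* had 1293 FPKM in M2 and 296 FPKM in M3–5 (2.12), *Jon25Bii* 1706 FPKM in M2 and 337 FPKM in M3–5 (2.34) and *Jon25Bi* 78.9 FPKM in M2 and 15.8 FPKM in M3–5 (2.25), against *Jon66Ci*, a gene of the posterior midgut, with 14.9 FPKM in M2 and 65.3 FPKM in M3–5 (−2.06). Of 11 Jonah genes past the limit, 4 were at least 2-fold higher and 1 at least 2-fold lower in M2 (median 0.84), where 3.64% and 3.35% of all genes were. All 13 trypsins had positive log2 ratios, 3 of them at least 1 (median 0.70): *lambdaTry* (1.80), *etaTry* (1.31) and *iotaTry* (1.10). A positive log2 ratio was itself common, with 2603 of all 3847 genes. The 4 genes with the highest FPKM on both sides were the trypsins *deltaTry*, *gammaTry*, *CG30031* and *CG30025*, near-identical copies that share reads. *deltaTry* had 104965 FPKM in M2 and 75144 FPKM in M3–5, and *yip7*, a further protease and next after them in M2, had 70026 FPKM in M2 and 31347 FPKM in M3–5 (1.16). The trypsin median stayed positive, at 0.29, with the libraries rescaled to the same sum, as did that of the Jonah genes (0.49), the lysozymes (0.66) and the lipases (1.41). The counts fell for most: 1 of 13 trypsins, 2 of 7 lysozymes and 4 of 7 lipases were then at least 2-fold higher in M2. Of 9 Jonah genes, 3 were at least 2-fold higher and 2 at least 2-fold lower, and 0 at least 4-fold higher, against 3 before. Rescaling also lowers the FPKM values, so fewer genes reach the limit and the members behind these medians are not all the same.

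Several of the steepest genes of the M2 side have no annotated function. *CG6839* had 133 FPKM in M2 and 2.81 FPKM in M3–5 (5.14) after 2239.6 FPKM in M1, and its close neighbor *CG3819* had 104.2 FPKM in M2 and 6.48 FPKM in M3–5 (3.81) after 2285 FPKM in M1. *CG31789* was among the most abundant genes of M1, with 44713 FPKM, and had 1643 FPKM in M2 and 49.2 FPKM in M3–5 (5.03). *CG14302* had 1079 FPKM in M2 and 38.1 FPKM in M3–5 (4.79), *CG34026* had 45.4 FPKM in M2 and 1.57 FPKM in M3–5 (4.18) and *CG34251* had 55.3 FPKM in M2 and 3.77 FPKM in M3–5 (3.56). The most abundant were *CG8997*, with 37955 FPKM in M2 and 7564 FPKM in M3–5 (2.33), and *CG7916*, with 36458 FPKM in M2 and 6498 FPKM in M3–5 (2.49). *CG13323* had 12274 FPKM in M2 and 2918 FPKM in M3–5 (2.07) and *CG13324* 966 FPKM in M2 and 130.4 FPKM in M3–5 (2.88).

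Larval cuticle genes were found almost only in the M2 library. Of 121 cuticle protein genes, in a list written after the values had been seen, 6 passed the limit, and all 6 were at least 4-fold higher in M2 (median log2 ratio 5.10). None of the 121 reached 10 FPKM in M3–5, where the highest had 3.10 FPKM. The limit could thus be passed only through M2, which set the shared direction of the 6. The median was 2.02 with a limit of 1 FPKM and 0.00 without a limit. *Cpr47Eg* had 64.3 FPKM in M2 and 0.263 FPKM in M3–5 (5.69), and *Lcp4* had 79.3 FPKM in M2 and 1.11 FPKM in M3–5 (5.25). *Lcp9* had 51.5 FPKM in M2 and 0.82 FPKM in M3–5 (4.85) and *Lcp3* 23.9 FPKM in M2 and 0.285 FPKM in M3–5 (4.28). *Lcp65Ab1* and *Lcp65Ab2*, near-identical copies that share reads, had 88.9 and 88.2 FPKM in M2 and 1.62 and 1.603 FPKM in M3–5. None of the 6 reached 1 FPKM in M1, and none did so in any subsection behind M3–5. In M2, 20 of the 121 genes had at least 1 FPKM, against between 4 and 7 in each of the other 7 subsections, and the summed level was 445 FPKM in M2, 18.7 in M3–5 and 35.4 in M1. These genes encode structural proteins of the exoskeleton, and the source of their RNA in the M2 library was not tested. The genes listed for trachea, given above, summed to less in M2 than in M3–5. *Cpr47Eg* is itself also in the list of foregut and proventriculus, of which 37 genes were higher and 20 lower in M2.

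Genes of insulin-like and activin-like signals lay on both sides. *Ilp3*, an insulin-like peptide gene, had 54.9 FPKM in M2 and 10.003 FPKM in M3–5 (2.35) and 0.122 FPKM in M1, and its level was 48.1 FPKM in M9. *ImpL2*, whose protein binds and blocks insulin-like peptides, had 11.9 FPKM in M2 and 71.2 FPKM in M3–5 (−2.48). Of the 9 genes of insulin-like peptides and this antagonist, no other passed the limit. *daw* (dawdle), an activin-like ligand, had 15.8 FPKM in M2 and 4.46 FPKM in M3–5 (1.62) and 145 FPKM in M1. *Nha1*, a sodium and proton exchanger, had 43.9 FPKM in M2 and 4.58 FPKM in M3–5 (3.01), and *CAH2*, a carbonic anhydrase that opposed *CAH1* and *CAH9* in direction, had 47.7 FPKM in M2 and 6.33 FPKM in M3–5 (2.73). *Treh*, trehalase, had 12.3 FPKM in M2 and 4.83 FPKM in M3–5 (1.19).

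Of 38 P450 genes past the limit, which act in detoxification and hormone metabolism, 7 were at least 2-fold higher and 1 at least 2-fold lower in M2 (median 0.22), where 3.64% and 3.35% of all genes were. The direction of these counts rests on the scaling: with the libraries rescaled to the same sum, 1 of 35 was higher and 2 were lower (median −0.23). The one lower in M2 was *Cyp6g1*, known for resistance to DDT, with 24.9 FPKM in M2 and 112 FPKM in M3–5 (−2.12) and 4.48 FPKM in M6. *Cyp4d2*, whose promoter marked M2 and, within M3–5, M4, had 94.6 FPKM in M2 and 45.3 FPKM in M3–5 (1.04). *Cyp4d8* (1.42) and *Cyp311a1* (1.39) were also higher in M2. Of 28 glutathione transferases, 3 were at least 2-fold higher in M2 and none at least 2-fold lower (median 0.51), against 0 of 27 higher and 1 lower after rescaling. With the length trend removed, 0 of 28 were at least 2-fold higher or lower. The 8 alpha-esterases all stayed within 2-fold. Among 7 regional transcription factors past the limit, none reached 2-fold, with log2 ratios from −0.52 for *nub* to 0.74 for *al*.

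The machinery of all cells gives a measure of the baseline. Ribosomal proteins of the cytoplasm had a median log2 ratio of 0.43 over 86 genes and those of mitochondria 0.39 over 72. Proteasome subunits had 0.32 over 32 and the respiratory chain 0.46 over 27, and no member of these lists passed 2-fold. With both libraries rescaled to the same sum, these medians lay between −0.09 and 0.05, so their direction rests on the scaling. With the length trend removed instead, they were 0.20, 0.16, 0.26 and 0.22 in the same order, beside 0.19 for all genes. The visceral muscle genes, the sleeve that both sections share, had a median of −0.46 over 19 genes with none past 2-fold, and −0.83 after rescaling.

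Some of the genes past 4-fold lay side by side. In the order of 13380 protein-coding genes on a later assembly, 30 of the 96 placed genes past 4-fold formed 13 runs of direct neighbors. In all 13 the members had the same direction across the boundary. How often other neighboring genes share a direction was not tested. Positions below are on release 5 of the genome. On chromosome 2R, *CG5770*, *CG5767* and *CG34005* lay between 13931551 and 13937230, and *CG5084* and *CG10910* just in front of them, between 13906170 and 13909911. *CG34005* had 12.1 FPKM in M2 and 111 FPKM in M3–5 (−3.10) and *CG10910* 276 FPKM in M2 and 3756 FPKM in M3–5 (−3.76). On 2L, *CG15423*, *CG43773* and *CG43774* lay between 4006041 and 4009090, with log2 ratios of −2.64, −4.12 and −4.55. On 3L, *CG7290* and *CG6996* lay between 20197409 and 20202700. On X, *CG8661*, *CG8664* and *CG5445* shared a bundle from 17175574 to 17199508. Runs of the M2 side were *Lcp3* and *Lcp4* on 2R (4322815 to 4326000), *Jon25Bii* and *Jon25Bi* on 2L (4952253 to 4955144), the lysozymes *LysP* and *LysS* on 3L (bundle 1200786 to 1232700) and *CG8997*, *CG7916* and *CG7953* on 2L (bundle 13835567 to 13898715). In runs that share a bundle, reads that fit several loci were divided among them by the authors' software.

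With a limit of 1 FPKM, 55 genes were at least 4-fold higher and 72 at least 4-fold lower in M2, and with one of 50 FPKM 28 and 39 were. Just inside the limit of 10 FPKM were *CG10000*, above, and *CG7912*, with 12.6 FPKM in M2 and 1.84 FPKM in M3–5. Just outside were *CG18746*, with 0.899 FPKM in M2 and 9.82 FPKM in M3–5, and *CG4563*, with 9.82 FPKM in M2 and 0.545 FPKM in M3–5.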

How the data were processed

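RNA from 8 subsections of the larval midgut was sequenced as 1 library per subsection. Per the labels, reads were mapped with TopHat2 2.0.6 and quantified with Cuffdiff 2.0.2, and the authors normalized by the upper quartile, divided reads that map to several places, corrected fragment bias and estimated dispersion blindly. The deposited FPKM values were used as such, with the deposited status of each value as another column (30 of 3847 genes had one other than OK). The authors' reads were single-end and unstranded.

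Here log2((M2 FPKM + 1)/(M3–5 FPKM + 1)) was computed for genes with at least 10 FPKM in either library. Limits of 4-fold and 2-fold correspond to log2 ratios of 2 and 1. No test was made. The arithmetic was checked on simulated data with planted differences well past the 4-fold limit, a setting that cannot show the error of the calls in these libraries. Genes were named by rule: the 15 highest and 15 lowest ratios with status OK and a gene identifier, every switch gene, list members past 2-fold with the most abundant one, all enteroendocrine peptides, *Cyp4d2*, the 5 highest genes of each subsection, neighboring genes past 4-fold and the genes at the limit. Genes outside this rule were picked after the values were known. Members and lists were chosen with earlier results of these data known, and genes known only by a CG number were placed in lists (lipases, aspartic proteases, peritrophic matrix) from general knowledge. Of 1492 list entries, 1437 were found.

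Alternatives were pseudocounts of 0.1 and 5, limits of 1 and 50 FPKM or none, 2 other scalings, other limits for off, entries with another status or with a transcript identifier left out, and removal of the length trend by lowess with a share of 0.3. Counting *Lcp65Ab1* and *Lcp65Ab2* as 1 gene was added after seeing the data. Coordinates are those of FlyBase release 5, converted to start at 1, while a later annotation gave gene order, names and transcript lengths. The 1 unnamed entry, with a failed quantification, was left out. The table's other columns with authors' intervals were used only for M2 and M3–5. Python 3.11.15, numpy 2.4.6, pandas 2.3.3 and statsmodels 0.14.6 were used.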

Additional observations from a re-analysis of the deposited data

How the results depend on the processing

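The counts of genes past 4-fold, 39 higher and 60 lower in M2, stayed within 1.5 times under every alternative run except a limit of 50 FPKM, which left 39 lower. That limit also left 62 lower at 2-fold, 3 genes on in M2 and off in M3–5 and 0 with the reverse, and a median log2 ratio of 0.35. With a limit of 1 FPKM, or none, 214 genes were at least 2-fold lower in M2, against 129, and the median was 0.021 or 0.00. With the libraries rescaled to the same sum, 61 genes were at least 2-fold higher in M2, against 140, 10 were off in M2 and on in M3–5, against 6, the median was −0.19, and 12 of the genes at least 4-fold higher in M2 were highest in M1, against 20, a check added after the values had been seen. With off taken as below 2 FPKM, 11 genes were on in M2 and off in M3–5 and 14 the reverse. The median of the foregut and proventriculus list, which had 3 genes past the main limit, was −1.48 at 10 FPKM and 0.44 at 1 FPKM. Medians of other lists also depended on the limit: at 1 FPKM and without a limit they were −0.71 and 0.00 for peritrophic matrix and mucins (−1.62 at 10 FPKM), −1.20 and −0.41 for enteroendocrine peptides (−2.01), 0.65 and 0.01 for lipases (1.24), and 2.02 and 0.00 for cuticle proteins (5.10). Without a limit they were 0.51 for lysozymes (1.07) and −0.19 for maltases and amylases (−1.63). Of 385 list medians under the alternatives, 27 moved by over 0.5 besides the foregut and proventriculus median above, which also did. Another sign was seen in 29, that median and 28 whose main value was within 2-fold. The cause of these changes was not tested beyond the number of genes that each limit admits.

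Of 568 log2 ratios of named genes under other pseudocounts, scalings or without the length trend, 509 kept their side of the fold limit and 59 fell below it. The sign changed for 1 value, that of *CCHa2*, a gene within 2-fold, which was 0.17 and became −0.23 with the libraries rescaled to the same sum. No paired analysis was possible because each subsection had 1 library. Depth limits the low values: at 1 FPKM or below, off cannot be told from a low level, and no counts were used.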

Other observations

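Below the 4-fold limit, metallothioneins did not share 1 direction. *MtnE* had 6147 FPKM in M2 and 2389.5 FPKM in M3–5 (log2 ratio 1.36) and *MtnD* 1497 FPKM in M2 and 578 FPKM in M3–5 (1.37), whereas *MtnA* had 2612 FPKM in M2 and 4855 FPKM in M3–5 (−0.89) and *MtnB*, described above, was far lower in M2. All 4 genes bind metals such as copper. The aquaporin gene *Prip* (CG7777) had 16.8 FPKM in M2 and 7.18 FPKM in M3–5 (1.12), and *Eglp2* (CG17664), of the same family, had 172 FPKM in M2 and 49.5 FPKM in M3–5 (1.78). *Desat2* (desat2 in the table), a fatty acid desaturase, had 36.02 FPKM in M2 and 11.5 FPKM in M3–5 (1.57), and the UDP-glycosyltransferase gene *Ugt35C1* (Ugt86Dd) had 103 FPKM in M2 and 26.01 FPKM in M3–5 (1.94). With the libraries rescaled to the same sum, differences of this size can fall below 2-fold, as that of *MtnE* did with a log2 ratio of 0.95.

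Further genes of the M3–5 side lay between 2-fold and 8-fold. *Tdc1*, a tyrosine decarboxylase, had 7.76 FPKM in M2 and 20.3 FPKM in M3–5 (−1.28), and the cation channel gene *TrpA1* had 3.16 FPKM in M2 and 10.9 FPKM in M3–5 (−1.51). *Drsl2*, a drosomycin-like gene, had 5.30 FPKM in M2 and 43.0 FPKM in M3–5 (−2.81) and 84.9 FPKM in M1, and *PGRP-LA*, of the peptidoglycan recognition family, had 3.39 FPKM in M2 and 12.8 FPKM in M3–5 (−1.66). *Gnmt* (CG6188), glycine N-methyltransferase, had 2.62 FPKM in M2 and 10.5 FPKM in M3–5 (−1.67), and *Sodh1* (Sodh-1), a sorbitol dehydrogenase, had 9.10 FPKM in M2 and 28.2 FPKM in M3–5 (−1.53). The genes of this paragraph and the one before were selected with their values known.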
